A study of Mus musculus with 30 samples.

Results

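The ionotropic receptors for GABA and glutamate carry most of the fast synaptic transmission of the brain, and this account follows the RNA of their subunits in stroma next to metastases. The members were chosen by name alone: every row of the deposited count table whose mouse symbol belongs to the Gabr, Gria, Grin, Grik or Grid families of subunits. The rule found 37 of 43346 rows, namely 19 GABA-A subunits, 4 AMPA, 7 NMDA, 5 kainate and 2 delta receptor subunits. RNA-seq libraries were made from cells that lacked GFP, sorted from mouse brain, bone or lung. In the exposed groups, GFP and luciferase labelled cells of a human circulating tumour cell (CTC) line, 100000 per mouse, had been put into the left ventricle of the heart of female NSG mice, an immunodeficient strain, aged 6 to 8 weeks and carrying slow-release estrogen, and had formed tumours in the organ. The control groups were stroma of the same organs from tumour-free mice. The labels give a single protocol for every library and do not say whether control mice carried estrogen. Brain had 3 exposed libraries, all next to the line Brx50, against 2 controls. Bone had 13 exposed libraries (2 Brx07, 4 Brx50 and 7 Brx68) against 3 controls. Lung had 7 exposed libraries (2 Brx07, 1 Brx42, 3 Brx50 and 1 Brx68) against 2 controls. A single CTC line in brain means that the line and the exposure cannot be told apart there. The sort gate was the absence of GFP, which keeps any mouse cell of the dissociated piece, neurons included. The labels do not tie each library to its own mouse. A p-value here therefore reflects library-to-library spread, which may be technical.

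GABA-A receptors are chloride channels built from 5 subunits, usually alpha, beta and gamma or delta, and give fast inhibition. Glutamate opens the AMPA receptors (Gria genes), which carry the fast excitatory current, the NMDA receptors (Grin genes), which need a GluN1 subunit and admit calcium, and the kainate receptors (Grik genes). The delta subunits (Grid genes) belong to the same family by sequence and act as synaptic organisers. Most of these subunits are neuronal, while a few, such as GABA-A gamma 1, are also known from glia.

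RefSeq promoter windows (GRCm38.p6, from 250 bases before to 50 after each gene start) were matched by symbol for 25 of the 37 members, 29 windows in all. The windows printed here belong to the members on which the brain results turn: Gabra2 and Grik2, which had the smallest p-values in brain, Gria2 and Gabrb2, 2 abundant members with low values in every exposed library, and Gabrg1, which lies next to Gabra2 in the genome and took its own course. Capitals mark a match to a searched motif. Gabra2 is on the minus strand at chr5:71095800-71096099, Grik2 on the minus strand at chr10:49788705-49789004, Gria2 on the minus strand at chr3:80802786-80803085, Gabrb2 on the plus strand at chr11:42420190-42420489 and Gabrg1 on the minus strand at chr5:70842568-70842867.
Gabra2: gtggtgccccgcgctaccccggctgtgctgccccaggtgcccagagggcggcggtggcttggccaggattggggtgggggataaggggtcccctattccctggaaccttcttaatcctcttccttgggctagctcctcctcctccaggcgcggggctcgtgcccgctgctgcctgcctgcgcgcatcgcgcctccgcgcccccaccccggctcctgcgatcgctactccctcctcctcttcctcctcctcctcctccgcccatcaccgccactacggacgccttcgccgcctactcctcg
Grik2: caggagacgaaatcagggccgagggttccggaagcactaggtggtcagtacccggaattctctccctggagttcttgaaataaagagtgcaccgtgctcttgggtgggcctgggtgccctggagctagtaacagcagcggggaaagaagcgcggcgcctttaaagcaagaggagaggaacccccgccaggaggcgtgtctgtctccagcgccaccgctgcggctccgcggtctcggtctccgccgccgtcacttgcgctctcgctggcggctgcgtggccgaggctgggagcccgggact
Gria2: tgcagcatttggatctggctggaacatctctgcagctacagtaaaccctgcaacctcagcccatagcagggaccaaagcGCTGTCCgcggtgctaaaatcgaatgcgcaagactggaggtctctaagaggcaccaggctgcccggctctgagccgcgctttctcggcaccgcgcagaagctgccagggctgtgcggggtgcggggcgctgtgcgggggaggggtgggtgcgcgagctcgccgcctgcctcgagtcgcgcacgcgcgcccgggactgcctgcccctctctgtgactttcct
Gabrb2: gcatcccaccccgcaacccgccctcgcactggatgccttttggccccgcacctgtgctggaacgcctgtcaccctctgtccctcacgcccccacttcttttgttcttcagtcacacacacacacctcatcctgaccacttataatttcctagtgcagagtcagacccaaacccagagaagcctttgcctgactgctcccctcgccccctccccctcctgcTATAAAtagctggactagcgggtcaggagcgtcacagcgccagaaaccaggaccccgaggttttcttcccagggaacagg
Gabrg1: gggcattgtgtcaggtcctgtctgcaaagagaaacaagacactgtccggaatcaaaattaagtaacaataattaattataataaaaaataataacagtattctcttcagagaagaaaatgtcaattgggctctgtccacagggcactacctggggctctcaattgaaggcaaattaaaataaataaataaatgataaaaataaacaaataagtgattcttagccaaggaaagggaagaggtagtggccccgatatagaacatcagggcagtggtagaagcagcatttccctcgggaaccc
The Gabra2, Grik2 and Gria2 windows are rich in G and C (70%, 64.7% and 65.7%) and hold 25, 26 and 26 CpG dinucleotides, whereas the Gabrg1 window has 38.3% G and C and 3 CpG. Over all 29 member windows the median was 58.7% G and C with 12 CpG, against 52.7% and 7 over the 32851 windows of all genes. Each of 4 motifs was searched on both strands. The cAMP response element TGACGTCA stood in none of the 25 members and in 1.79% of all windows. The parts CAGCACC and GGACAGC of the element of the repressor REST stood in 1 member each, Gabrq and Gria2, against 7.14% and 6.56% of all windows. In Gria2 the match reads GCTGTCC on the gene's strand. TATAAA stood in 3 members (Gabra3, Gabrb2 and Grin3b) and in 13.6% of all windows. Gabrb2 also has windows that start at 42420524 and 42420951, and these hold no TATAAA. A member was counted for a match in any of its windows, while the shares are of single windows. These are matches of letters and nothing more.

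Depth ran from 4289012 to 9685820 counts in exposed brain and from 6270956 to 7504650 in brain controls, and from 7058861 to 15646947 in the bone and lung libraries. Levels are given as CPM, the usual count scaled to the total of its library. Brain libraries carried neurons by their markers: the summed level of 15 pan-neuron genes was 5683 and 4785 CPM in the controls and 4009, 1102 and 3486 CPM in exposed replicates 1, 2 and 3, against 203 to 273 CPM in the bone and lung controls. Exposed brain replicate 2 stood apart, with the pan-neuron list at 21.1% of the control mean against 76.6% and 66.6% in replicates 1 and 3. All 15 genes of that list were fitted lower in exposed brain, against 48.4% of all genes, and none reached an unadjusted p of 0.05 in edgeR. Lists of other cells differed as well. The microglia list (6 genes) stood at 324%, 443% and 131% of control, the oligodendrocyte list (6 genes) at 248%, 191% and 143%, and the astrocyte list (8 genes) at 43.9%, 120% and 78.6%. The inhibitory neuron list (9 genes) stood at 88.7%, 122% and 65.4%, so that replicate 2, lowest for the pan-neuron list, was highest for this one. The 5 genes of the pituitary list summed to 10.2 and 10.4 CPM in controls and to 1996, 1485 and 663 CPM in exposed brain. In such bulk libraries fewer cells of a type and less RNA per cell cannot be told apart, and the part that cell make-up has in the values below was not tested.

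In exposed brain the summed level of the receptor subunits was lower than in control in each of the 3 libraries, and by the mean of the exposed libraries the GABA-A and AMPA classes stood lowest relative to control. No single subunit passed the edgeR test. Summed over the 37 members, the level was 4536 and 3836 CPM in the 2 controls and 3096, 1718 and 2823 CPM in exposed replicates 1 to 3. Each exposed library thus lay below both controls, at 74.0%, 41.1% and 67.4% of their mean. The exposed mean stood at 60.8% of the control mean. The number of genes with counts was also lower in exposed brain, at 16344, 19139 and 23074 against 23736 and 24146 in controls, and its part in the sums was not tested.
By class, the exposed means stood at 50.0% of control for GABA-A, 57.3% for AMPA, 63.2% for NMDA, 76.4% for kainate and 82.3% for delta subunits. No test was made of these sums.

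**Figure D1:**
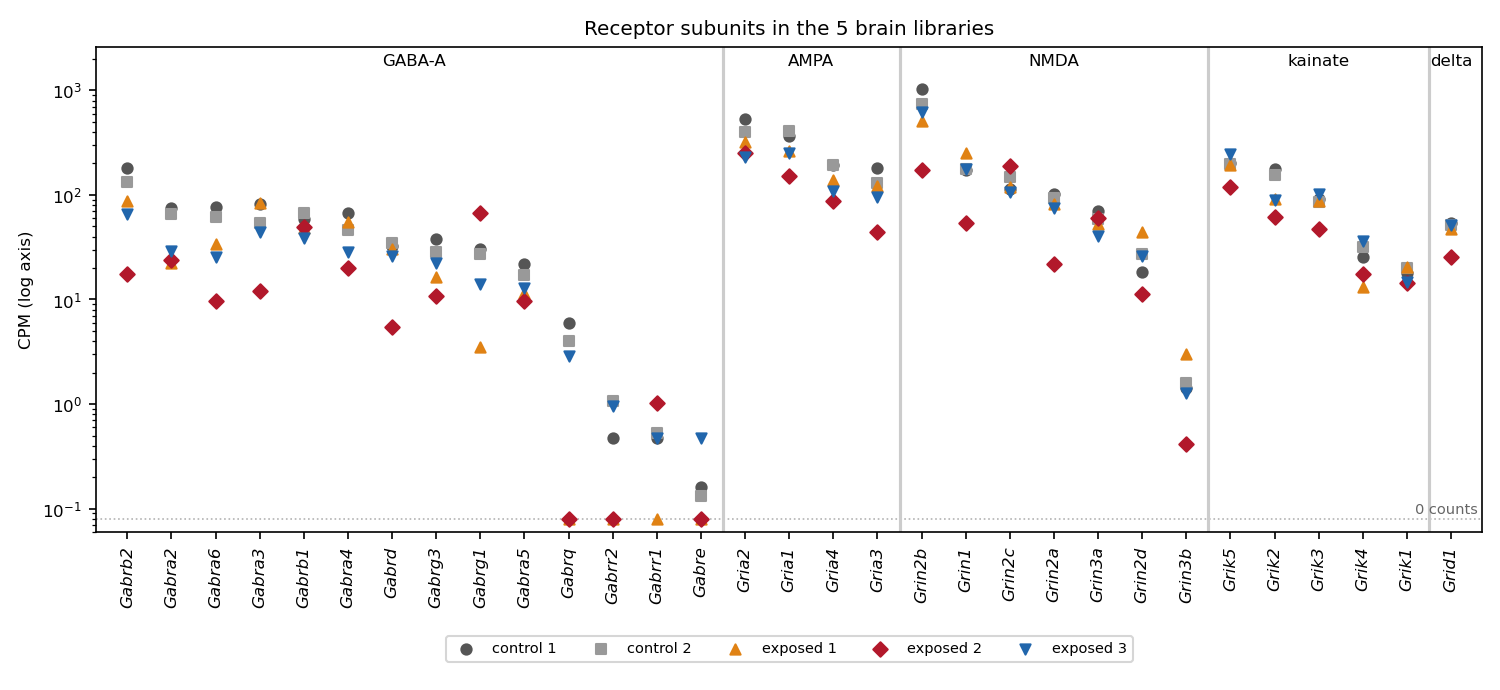
CPM of the subunits in the 5 brain libraries on a log axis, ordered within each class by the control mean; grey marks are the 2 tumour-free controls and coloured marks the 3 exposed libraries. Gabrp and Gabrr3, at 0 in every brain library, and 4 members not reported by name are left out, and marks on the dotted line are libraries with 0 counts. Exposed replicate 2 holds the lowest mark for most GABA-A subunits, while Gabrg1 and Grin2c are highest there.

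The fit over all genes tested 32 of the 37 members. Gabre, Gabrp, Gabrr1, Gabrr2 and Gabrr3 had too few counts, and Gabrp and Gabrr3 were at 0 in all 5 libraries. With edgeR's quasi-likelihood test and Benjamini-Hochberg adjustment over 16734 genes, 0 of the 32 passed an adjusted p of 0.05 in either direction, as did 0% of all genes in the lower direction. Fitted values were lower in 30 of the 32, against 48.4% of all genes. At an unadjusted p under 0.05, 10 of the 32 were lower and 0 higher. Of all 16734 genes, 743 (4.44%) were lower and 1529 higher at that threshold. In 19 of the 32, every exposed library lay below both controls, against 18.6% of all genes. In 0 of the 32 every exposed library lay above both, and the share of all genes is not given for that. The median fitted log2 difference was -0.76 over the 32 and 0.03 over all genes. DESeq2 called 2 of the members lower (Gabra2 and Grik2, against 0.562% of all genes) and limma-voom with quality weights called 6 (Gabra2, Gabrb2, Gabra6, Gria2, Gria4 and Grik2, against 0.693%). With exposed replicate 1, 2 or 3 left out, the count of 10 at unadjusted p was 14, 13 and 6. Of all genes, 1116 of 16474, 1015 of 16045 and 956 of 16293 were then lower at that threshold. Leaving out control replicate 1 or 2 left a single control, and the median log2 difference of the members was then -0.63 and -0.86.

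Among the GABA-A subunits, Gabra2 had the clearest values. This gene encodes the alpha 2 subunit, found at synapses of forebrain neurons, and lies at chromosome 5, 70957597 to 71095849 (GRCm38, minus strand). It stood at 74.5 and 65.3 CPM in the controls and at 22.4, 23.6 and 29.0 CPM in the exposed libraries. The 2 groups did not overlap, and the 3 exposed libraries lay close to each other. The log2 difference was -1.53 (SE 0.245), with an edgeR adjusted p of 0.210. DESeq2 gave an adjusted p of 0.000172, limma-voom 0.0116, and edgeR without the low count filter 0.00924.

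Gabra6, the alpha 6 subunit of cerebellar granule cells, stood at 77.3 and 60.9 CPM in controls and at 33.8, 9.60 and 25.5 CPM in exposed brain, again without overlap (log2 -1.64, SE 0.517, edgeR adjusted p 0.303). The 6 genes of the cerebellar granule list stood beside it, with sums of 775 and 933 CPM in controls and 496, 277 and 515 CPM in exposed brain. Gabrg3, a gamma subunit, read 37.8 and 28.5 CPM against 16.3, 10.7 and 22.2 CPM, with a log2 difference of -1.06 (SE 0.393, edgeR adjusted p 0.331). Its groups were apart, and exposed replicate 2 was the lowest library.

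Gabrb2, the beta 2 subunit, stood at 180 and 133 CPM in controls and at 88.1, 17.4 and 66.1 CPM in exposed brain. Exposed replicate 2 was again the lowest, and the groups did not overlap. Over the GABA-A class, 14 of 19 members were tested, and 14 of the 14 were fitted lower, against 48.4% of all genes. At an unadjusted p under 0.05, 6 were lower, against 4.44% of all genes. In 11 every exposed library lay below both controls, against 18.6% of all genes. Fitted log2 differences ran from -2.38 to -0.12 with a median of -1.01. The lowest value is that of Gabrq (theta), a sparse gene at 5.90 and 4.00 CPM in controls and 0, 0 and 2.85 CPM in exposed brain, whose SE was 1.79.

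Of the other GABA-A genes, Gabra5 (alpha 5) read 22.0 and 17.3 CPM against 11.4, 9.60 and 13.0 CPM, and Gabrd (delta), a subunit of receptors outside synapses, read 32.5 and 34.6 CPM against 30.5, 5.47 and 26.3 CPM. Both had each exposed library below both controls. Gabra3 (82.3 and 53.6 CPM against 83.5, 11.98 and 44.0 CPM) and Gabra4 (67.1 and 46.2 CPM against 54.8, 20.1 and 28.2 CPM) overlapped through exposed replicate 1. The epsilon and rho subunits Gabre, Gabrr1 and Gabrr2 stayed at or below 1.07 CPM in brain.

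Gabrg1 (gamma 1) differed widely between exposed libraries. It stood at 30.5 and 27.4 CPM in the controls and at 3.50, 66.7 and 14.1 CPM in exposed replicates 1, 2 and 3. Exposed replicate 2 was thus above both controls and the other two exposed libraries below them, and the fitted log2 difference was -0.12 (SE 0.966). The astrocyte list had the same order of exposed libraries, at 43.9%, 120% and 78.6% of control. The order was not particular to astrocytes. The oligodendrocyte precursor list (98.4%, 200% and 162%) and the Schwann list (184%, 297% and 238%) had it, as did the olfactory neuron and epithelium lists. The part of astrocytes or of other cells in the Gabrg1 values was not tested.

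Many GABA-A genes lie in clusters of neighbours. The cluster of Gabrg1, Gabra2, Gabra4 and Gabrb1 on chromosome 5 (70751047 to 72149037, GRCm38) stood at 59.1%, 73.0% and 50.1% of the control sum in exposed replicates 1 to 3. The X-linked group of Gabre, Gabra3 and Gabrq (72255999 to 72842602) stood at 114%, 16.4% and 64.9%. In replicate 2 the chromosome 5 value rests on Gabrg1 and on Gabrb1, which read 59.3 and 67.3 CPM in controls and 48.7, 49.4 and 38.3 CPM in exposed brain. Gabra4 overlaps Gabrb1 on the opposite strand. The count's strand setting was not given in the sources at hand, and reads in this overlap cannot be told apart.

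The 4 AMPA subunits had like values. In all 4, every exposed library lay below both controls, against 18.6% of all genes. Their fitted log2 differences ran only from -0.87 to -0.84. Gria2 encodes GluA2, the subunit that makes the channel impermeable to calcium, at chromosome 3, 80681450 to 80802835. It stood at 536 and 396 CPM in controls and at 319, 251 and 231 CPM in exposed brain (log2 -0.86, SE 0.291, edgeR adjusted p 0.320). Gria1 (GluA1) read 366 and 405 CPM against 261, 151 and 254 CPM, with a log2 difference of -0.84 (SE 0.329, edgeR adjusted p 0.348). Gria4 (GluA4) read 195 and 192 CPM against 139, 87.1 and 109 CPM (log2 -0.84, SE 0.279, edgeR adjusted p 0.313). Gria3 (GluA3) read 179 and 131 CPM against 122.9, 44.1 and 95.4 CPM. Of the 4, all but Gria3 had an unadjusted p under 0.05 in edgeR, against 4.44% of all genes in the lower direction.

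NMDA subunits were mixed. Fitted values were lower in 5 of 7, against 48.4% of all genes. None had an unadjusted p under 0.05, and the median log2 difference was -0.16. Grin2b, the GluN2B subunit typical of forebrain and of young synapses, was the member with the most counts, at 1038 and 745 CPM in controls and 507, 173 and 625 CPM in exposed brain. Its groups did not overlap (log2 -1.07, SE 0.556, edgeR adjusted p 0.455). Grin2a (GluN2A), at 101 and 93.5 CPM in controls and 82.1, 21.9 and 75.6 CPM in exposed brain, was the other NMDA gene below both controls in each exposed library.

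Grin1, the obligate GluN1 subunit, did not follow them. It read 175 and 177 CPM in controls and 251, 54.3 and 179 CPM in exposed brain, so that replicates 1 and 3 lay above the controls and replicate 2 far below. Reads of Grin1os, which overlaps it on the other strand, may be counted with it. The 2 members with fitted values above 0 were Grin2d and Grin2c. Grin2d (GluN2D) read 18.3 and 27.2 CPM against 44.3, 11.3 and 26.0 CPM (log2 0.21, SE 0.583, edgeR adjusted p 0.910), and Grin2c (GluN2C), known from cerebellar granule cells and astrocytes, read 113 and 149 CPM against 120.1, 189.9 and 107 CPM (log2 0.02, SE 0.296, edgeR adjusted p 0.984). The sign of Grin2d turned without control replicate 1 (log2 -0.05) or without exposed replicate 1 (-0.35), and that of Grin2c turned without control replicate 1 (-0.18) or exposed replicate 2 (-0.23). Grin2d overlaps Kdelr1, a gene of the opposite strand. Grin3a read 70.2 and 58.5 CPM against 53.2, 60.8 and 40.7 CPM, and Grin3b stayed at 0.413 to 3.03 CPM in the 5 libraries.

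Of the kainate subunits, Grik2 stood apart. This gene encodes GluK2, a pore-forming subunit, and lies at chromosome 10, 49094833 to 49788766 (minus strand). It read 178 and 155 CPM in controls and 91.9, 61.2 and 90.3 CPM in exposed brain, with no overlap. Its log2 difference was -1.08 (SE 0.277), with an adjusted p of 0.256 in edgeR, 0.0227 in DESeq2 and 0.0265 in limma-voom. Grik5 (GluK5), a subunit that needs a partner such as GluK2, read 202 and 199 CPM against 194, 119 and 245 CPM, a log2 difference of -0.15 (SE 0.354). Grik3 read 91.5 and 85.4 CPM against 86.7, 47.6 and 102 CPM. Grik4 and Grik1 were sparser, at 13.1 to 36.3 CPM and 14.2 to 20.3 CPM over the 5 libraries, with controls inside the exposed range for both. By the mean of the exposed libraries the delta class stood nearest to control, while in replicate 3 the kainate class did (97.0% against 77.1%). Grid1 read 53.6 and 51.2 CPM against 46.9, 25.7 and 51.8 CPM.

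**Figure D2:**
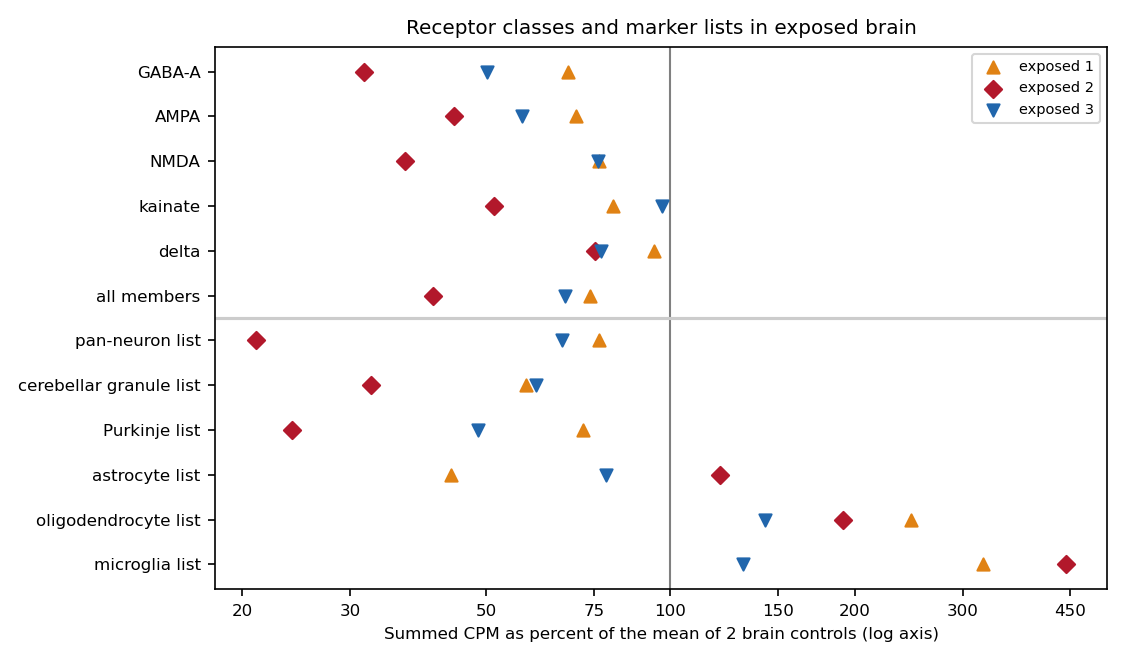
Summed CPM of each receptor class (upper rows) and of 6 marker lists (lower rows) in the 3 exposed brain libraries, as a percent of the mean of the 2 controls, on a log axis; the vertical line marks 100%. Every receptor class lies below 100% in each library, with replicate 2 at 31.6% for GABA-A and at 75.5% for delta subunits, while oligodendrocyte and microglia lists lie above 100%.

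Set against the neuron markers, the subunits stood near the control ratio in exposed replicates 1 and 3 and above it in replicate 2. The members' summed CPM came to 79.8% and 80.2% of the pan-neuron sum in the controls and to 77.2% and 81.0% in exposed replicates 1 and 3. In exposed replicate 2 it came to 156%. Among the classes in that library the delta subunits stood at 10.5% of the pan-neuron sum against 2.73% and 3.17% in controls, AMPA subunits at 48.4% against 22.5% and 23.5%, and GABA-A subunits at 27.1% against 18.9% and 17.1%. In exposed replicates 1 and 3 the classes parted: GABA-A subunits stood below both controls (16.04% and 13.6%), and kainate subunits at 10.1% and 14.0% against 9.06% and 10.3% in controls. When the library size was set to the counts of the pan-neuron list, the median over all genes moved to 1.42 on the log2 scale and that of the 32 members to 0.34. Fitted values were then higher in 25 of the 32 members, against 94.7% of all genes, and 0 of the 32 had an unadjusted p under 0.05 in either direction, against 15.5% of all genes higher. The difference of Gabra2 was -0.19 (SE 0.938) on this scale.

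The make-up of subunit families was compared per length, as the share of summed CPM per kb of exon within a family. AMPA shares were steady: Gria1 held 42.0% and 49.2% in controls and 44.0%, 42.1% and 50.1% in exposed brain. Within GluN2, Grin2c held 30.9% and 42.9% in controls, 43.0% and 38.9% in exposed replicates 1 and 3, and 79.3% in replicate 2. Grik2 held 19.3% and 17.2% of the kainate subunits in controls and 11.7%, 12.2% and 9.24% in exposed brain, below both controls each time. The Grik5 share, at 56.1% and 56.5% in controls, was 63.2%, 60.5% and 64.1% there.

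**Figure D3:**
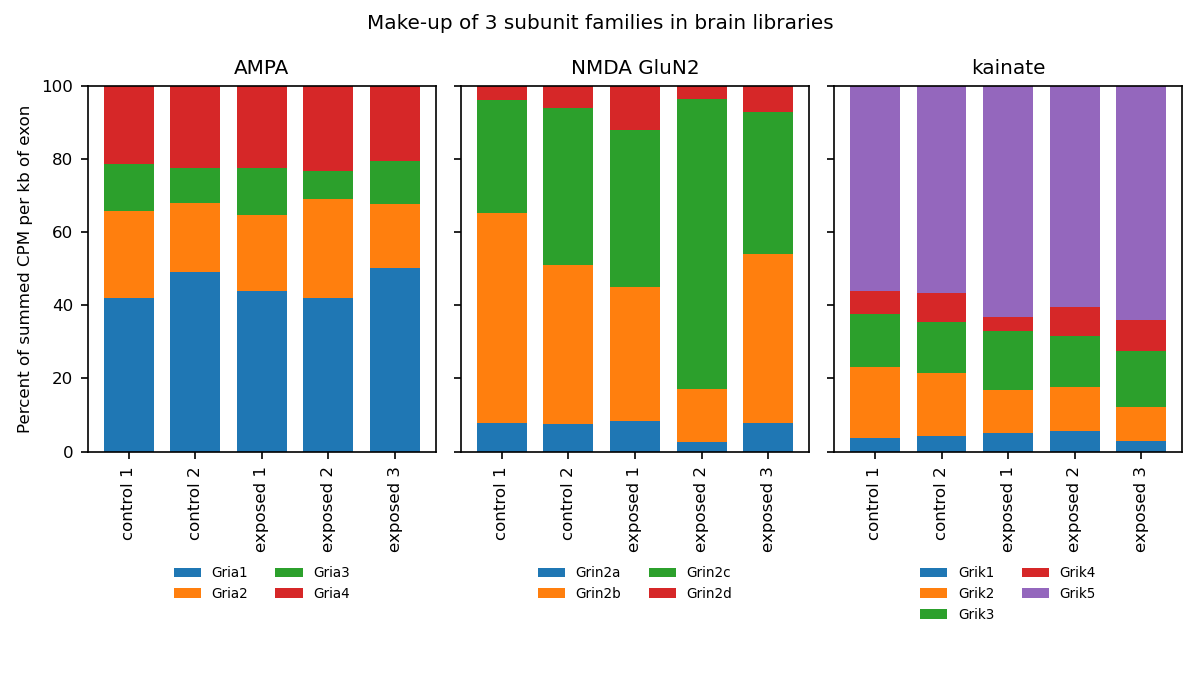
Stacked bars give each subunit's percent of the summed CPM per kb of exon in 3 families (AMPA, GluN2 and kainate), one bar per brain library. The AMPA bars look alike in the 5 libraries, while Grin2c takes 79.3% of GluN2 in exposed replicate 2 and the Grik2 share is smaller in each exposed library than in the controls.

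Other genes of the same synapses were read from 9 lists, and none of their genes passed an adjusted p of 0.05 in brain with edgeR. Of all genes, 48.4% were fitted lower and 4.44% were lower at an unadjusted p under 0.05. The counts of these short lists were not tested against those shares. Auxiliary subunits of AMPA receptors were fitted lower in 10 of 11, with 1 at an unadjusted p under 0.05. That was Shisa9, at 49.0 and 46.4 CPM in controls and 19.4, 32.4 and 32.6 CPM in exposed brain (log2 -0.81, SE 0.294, edgeR adjusted p 0.323), while Cnih2, the one with most counts in controls, read 77.5 and 76.1 CPM against 106.5, 26.7 and 91.4 CPM. Both auxiliary subunits of kainate receptors were fitted lower. Neto2, which binds GluK2, had the smallest p of any gene in these lists, at 79.6 and 50.1 CPM in controls and 20.98, 25.9 and 26.3 CPM in exposed brain (log2 -1.47, SE 0.286, edgeR adjusted p 0.234). Scaffold genes of glutamate synapses were fitted lower in 12 of 12, with 0 at an unadjusted p under 0.05. Shank1, with their most counts, read 1306 and 1479 CPM against 1211, 386 and 2101 CPM, and Dlg2 (PSD-93), with their smallest p, read 485 and 366 CPM against 242, 106 and 287 CPM. Metabotropic receptors for both transmitters were fitted lower in 9 of 9 tested of 10, with Gabbr2 and Grm4 at an unadjusted p under 0.05. Gabbr2, a GABA-B subunit with the most counts of these, read 253 and 254 CPM against 155, 149 and 208 CPM (log2 -0.62, SE 0.259, edgeR adjusted p 0.367). Grm4, a metabotropic glutamate receptor with the smallest p of that list, read 28.1 and 37.4 CPM against 21.2, 14.7 and 19.0 CPM (log2 -0.89, SE 0.316).

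Among partners of GABA-A receptors, 6 of 8 were fitted lower, against 48.4% of all genes. The partner with the smallest p was not among those 6. Gabarap, which binds GABA-A receptors and also serves autophagy, stood at 15.1 and 17.1 CPM in controls and at 28.9, 30.7 and 25.5 CPM in exposed brain (log2 0.76, SE 0.275, edgeR adjusted p 0.323). GABA synthesis and transport genes were fitted lower in 4 of 6, with Abat, the enzyme that degrades GABA, at 381 and 409.8 CPM in controls and 217, 220.0 and 266 CPM in exposed brain (log2 -0.80, SE 0.246, edgeR adjusted p 0.293). Glutamate transport genes were fitted lower in 6 of 7, with most counts for the astrocyte transporter Slc1a2 at 4456 and 4119 CPM against 1433, 4002 and 3056 CPM. Slc1a1 had the smallest p of that list, at 6.06 and 5.86 CPM against 1.87, 1.76 and 2.22 CPM. All 4 glycine receptor genes were fitted lower, with Glrb at 88.3 and 58.2 CPM against 42.9, 38.7 and 43.9 CPM (log2 -0.86, SE 0.267, edgeR adjusted p 0.299). The 2 chloride transporters that set the direction of GABA currents parted: Slc12a2 (NKCC1) read 163 and 165 CPM against 218, 383 and 275 CPM (log2 0.77, SE 0.288, edgeR adjusted p 0.335), and Slc12a5 (KCC2), the neuronal exporter, read 403 and 393 CPM against 357, 118 and 365 CPM (log2 -0.54, SE 0.507, edgeR adjusted p 0.676).

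In tumour-free stroma the subunits were a brain set with few exceptions. Per kb of exon, the highest in brain controls were Gria1 (63.8 CPM per kb), Grik5 (38.8), Grin2b (35.9), Gria4 (30.7), Gria2 (29.96), Gabra6 (27.8), Grin2c (26.0) and Gabrb2 (24.6). Below Gria1, neighbours in this order, Gria4 and Gria2 among them, did not differ beyond the spread between the 2 controls. Of 33 members tested over the 7 control libraries, edgeR called 31 higher in brain than in bone, against 38.9% of all genes, and 1 lower, against 37%. Against lung it again called 31 higher, against 37.4% of all genes, and 1 lower, against 34.6%. The median log2 difference was 6.60 to bone and 6.87 to lung. With genes at 0 in bone or lung set to the lower bound that 3 counts over the group allow, it was 6.48 and 6.87. Gabrg1 (397 counts over the 2 brain controls) was at 0 in the controls of both other tissues, so that brain was at least 331-fold higher than bone and at least 210.5-fold higher than lung.

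A few subunits had small gaps between tissues. The smallest called differences to bone were those of Grin2d, Gria3 and Grik5, and to lung those of Grin2d, Grik3 and Grik5. Grik5 stood at 200.4 ± 2.08 CPM in brain controls (SD, n = 2), 27.2 ± 1.25 in bone (n = 3) and 17.99 ± 0.604 in lung (n = 2), with log2 differences of 2.74 (SE 0.110) and 3.30 (SE 0.131). Gria3 stood at 155 ± 34.4 CPM in brain, 44.7 ± 9.77 in bone and 7.86 ± 0.982 in lung (log2 1.65, SE 0.189, and 4.12, SE 0.251). Grin2d stood at 22.8 ± 6.25, 8.18 ± 1.91 and 3.24 ± 0.366 CPM (log2 1.34, SE 0.239, and 2.64, SE 0.297). Grik3 stood at 88.5 ± 4.33, 3.91 ± 1.54 and 11.8 ± 0.182 CPM (log2 4.33, SE 0.217, and 2.73, SE 0.225). Grin3b did not pass the test (edgeR adjusted p 0.767 and 0.118), at 1.52 ± 0.116 CPM in brain, 1.54 ± 1.12 in bone and 2.84 ± 0.462 in lung. Gabrp, the pi subunit known from epithelia, was the member lower in brain, at 0 counts there, 14 counts over the bone controls and 37 over the lung controls. Lung was at least 7.75-fold higher than brain by the floor of 3 counts. For bone the bound was 1.87-fold, and that call was lost without brain control replicate 1 (edgeR adjusted p 0.107) or 2 (0.129) and without bone control replicate 1 (0.0819), and with limma-voom (0.0828). In the edgeR fit of all 30 libraries, 28 members were called higher in brain than in bone and 29 than in lung, and the calls of Gabrp (adjusted p 0.253 for bone and 0.111 for lung) and, for bone, of Gria3 (0.103) and Grin2d (0.223) were lost.

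**Figure D4:**
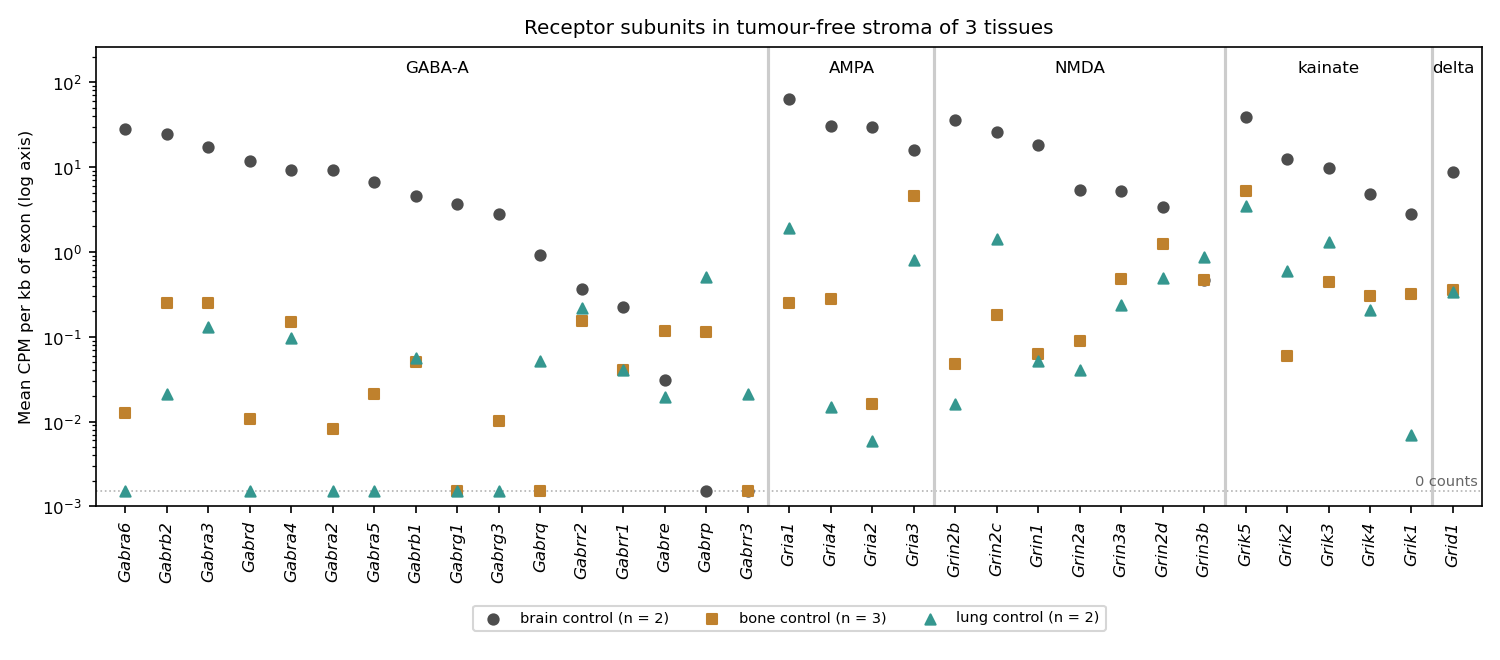
Mean CPM per kb of exon of 33 subunits in tumour-free brain (2 libraries), bone (3) and lung (2), on a log axis; marks on the dotted line are groups with 0 counts. Brain marks lie highest for most members, with smaller gaps for Grik5, Gria3 (bone) and Grin2d, and bone and lung lie above brain for Gabrp.

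In bone the subunits were sparse, and the exposed libraries spread widely around the controls. The members summed to 104, 128 and 116 CPM in the 3 controls and to 66.5 to 230 CPM (median 117) in the 13 exposed libraries. Of 29 members tested, edgeR called 0, as it did 0% of all genes. At an unadjusted p under 0.05 there were 0 members, against 359 higher and 91 lower of 18278 genes. DESeq2 also called 0 members, against 14 higher and 3 lower of all genes. Limma-voom called 1, Gria3 lower (log2 -1.10, adjusted p 0.0139), a smaller share than the 11.8% of all genes it called lower. Gria3, the member with the most counts in controls, stood at 33.4, 50.7 and 49.9 CPM in controls and ran from 10.4 to 69.9 CPM with a median of 21.4 in exposed bone (edgeR log2 -0.61, SE 0.515, adjusted p 0.985). The highest Gria3 values were in exposed replicates 4 and 10 (69.9 and 65.9 CPM). These libraries, next to Brx50 and Brx68, also held 31332 and 17747 CPM of the 5 monocyte and neutrophil genes, while the lowest, replicate 13, held 317. Replicate 7 held 387 CPM of these genes with Gria3 at 38.9 CPM, and replicates 5 and 11 held 12142 and 10259 CPM with Gria3 at 21.8 and 25.0 CPM. The part of marrow cells in the Gria3 values was not tested.

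Grik5 ran from 10.3 to 61.9 CPM (median 25.1) in exposed bone against 26.4, 28.6 and 26.5 CPM in controls. Grik3 ran from 1.00 to 21.3 CPM (median 5.98) against 5.31, 2.26 and 4.17 CPM, and Grin2d from 1.91 to 21.1 CPM (median 7.79) against 6.77, 10.4 and 7.41 CPM. Controls lay inside the exposed range for all 3. Rarer members reached several CPM in single exposed libraries. Gria1 reached 17.1 CPM in replicate 9 (controls 1.08 to 2.07), Gabrp 15.7 CPM in replicate 2 (controls 0.0926 to 0.770), Grid1 13.8 CPM in replicate 7 (controls 1.76 to 2.77), and Gria2 11.1 and 10.9 CPM in replicates 2 and 6 (controls 0 to 0.648). Altogether 20 members reached 5 CPM in some bone library. Of the 29 members tested in bone, exposed replicates 2, 6 and 9 held 24, 25 and 20 above every control library, against 52.6%, 48.7% and 35.8% of all genes tested. Replicate 3 held 18, against 39.3% of all genes. Replicates 1 and 10 held 1 each, against 35.5% and 30.6% of all genes.

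Replicate 2, whose label names the skull, carried 1820 CPM of the 6 olfactory neuron genes (22.9 to 27.3 in controls), 909 CPM of the 5 epithelial genes (66.8 to 89.7) and 550.2 CPM of the pan-neuron genes (203 to 232). Replicate 1, from leg with the same label code, carried 14.1, 10.01 and 191 CPM. Replicate 6 carried 697 CPM of the pituitary genes (0.376 to 1.31 in controls), 346 CPM of the epithelial genes and 106 CPM of the pan-neuron genes. Replicates 4 and 5 carried 435 and 509 CPM of the olfactory neuron genes and 402 and 537 CPM of the pan-neuron genes. They held 8 and 13 of the 29 members above every control, against 37% and 35.8% of all genes. Replicate 9 carried 120 CPM of the olfactory neuron genes, 163 CPM of the epithelial genes and 394 CPM of the pan-neuron genes. Replicate 3, which held 18 members above every control, carried less, at 50.2, 35.0 and 215 CPM of the same lists. The part of these cells in the subunit values was not tested. Without the 2 Brx07 libraries the count of calls stayed at 0.

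Lung held the smallest set. The members summed to 79.7 and 87.1 CPM in controls and to 26.7 to 164 CPM (median 96.3) in the 7 exposed libraries, and 9 members reached 5 CPM in some library. Gabra5, Gabra6 and Gabrg1 were at 0 counts in all 9 lung libraries. EdgeR called 0 of 16 members tested, as it did 0% of all genes. At an unadjusted p under 0.05 there were 0 members, against 69 higher and 49 lower of 17132 genes. DESeq2 called 0 members, against 2 higher and 1 lower of all genes. Limma-voom called 0 members, against 1 higher and 0 lower of all genes. Gria1 stood at 8.78 and 14.6 CPM in controls and ran from 1.1997 to 54.6 CPM (median 11.8) in exposed lung. Gria3 ran from 6.28 to 34.7 CPM (median 8.68) against 7.17 and 8.56 CPM, and Grik5 from 7.27 to 27.0 CPM (median 19.3) against 17.6 and 18.4 CPM. Grik3 ran from 0 to 24.5 CPM (median 13.2) against 11.6 and 11.9 CPM. Grin2d (1.62 to 13.5 CPM), Grin2c (1.69 to 9.71), Grik2 (0 to 8.49) and Gabrp (0 to 8.28) had lower maxima, and in each the controls lay inside the exposed range. Exposed replicate 6, next to Brx50, was lowest for Gria1, Grik5, Grik3, Grik2, Grin2c, Grin2d and Gabrp, and held 169 CPM of the 5 endothelial genes against 4591 and 5351 CPM in controls.

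**Figure D5:**
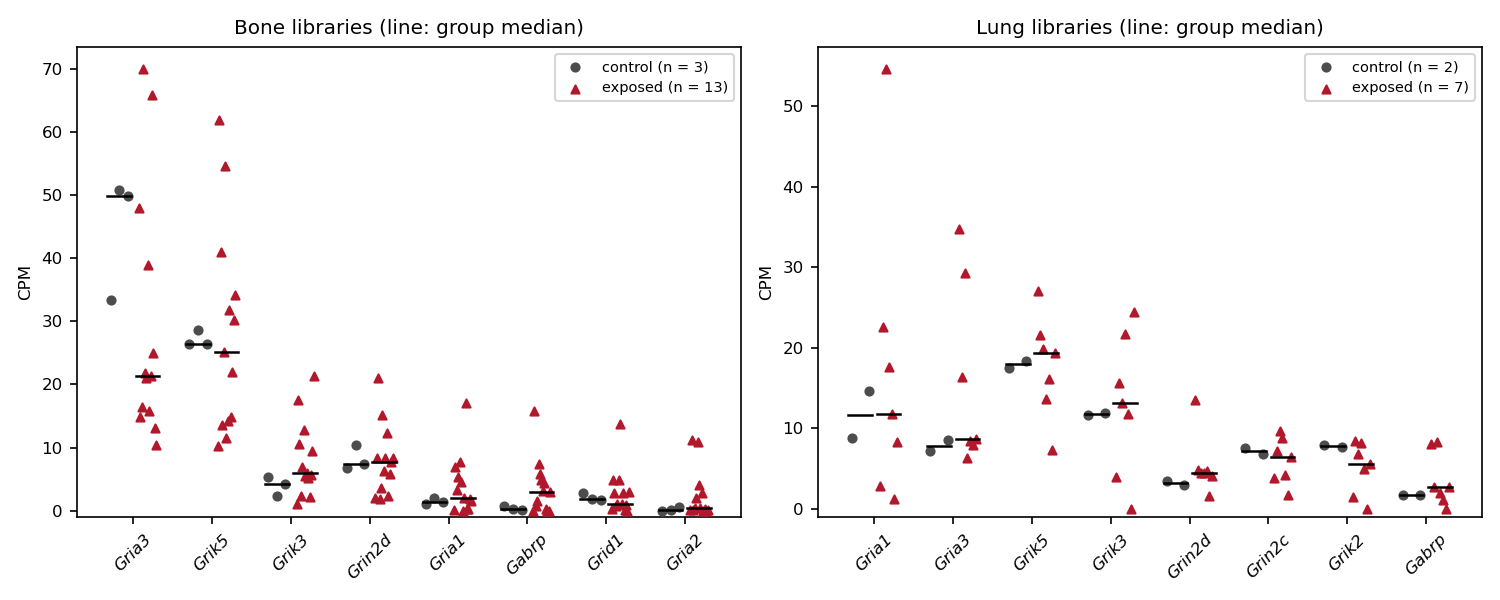
CPM of the 8 members with the highest single-library values in bone (left) and lung (right); grey circles are controls, red triangles exposed libraries, and black lines group medians. Exposed libraries spread to both sides of the controls for Gria3 and Grik5, and single libraries stand high for Gria1 in lung (54.6 CPM) and Gabrp in bone (15.7 CPM).

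Whether exposure went with a different change in brain than in the other tissues was tested in 1 fit of all 30 libraries. The number codes in the labels of 2 of the 3 exposed brain libraries recur on exposed bone or lung libraries of the same CTC line. What the codes stand for is not said, and the fit treats these libraries as independent. Of 36 members tested, edgeR called 0 for brain against bone and 0 for brain against lung, as it did 0% of all genes in both. At an unadjusted p under 0.05, 0 members had a lower value for brain than for lung, against 377 of 21233 genes. At that threshold 3 members, Gabrq and Gabra2 among them, had a lower value for brain than for bone, against 4.37% of all genes. For Gabra2 that difference of log2 differences was -4.47 (SE 1.90, edgeR adjusted p 0.582). Its bone values were near 0, so the difference rests on few counts. DESeq2 called 0 members in both, against 78 higher and 30 lower of all genes for bone and 23 higher and 4 lower for lung. Limma-voom called 4 members for bone, Gabra2, Gabrq and Grik2 among them (against 3.21% of all genes lower). For lung it called 0 members, against 291 higher and 163 lower of all genes.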

How the data were processed

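For the 30 libraries the values used were raw read counts by mouse gene, as the authors deposited them in 1 table. STAR 2.5.2b, HTSeq and the builds hg19, GRCh37, mm10 and also GRCm38.p5 stand in the submitters' processing notes. Annotation, strand setting and any separation of human reads: not given in the sources used here. Rows without a matched symbol held 0.132% of the counts. The members and gene lists were chosen with earlier results of these data known. Counts were fitted over all genes with edgeR 4.0.16 (R 4.3.3: filterByExpr, TMM scaling, robust quasi-likelihood fit, Benjamini-Hochberg adjustment), with exposed against control in each tissue, the tumour-free tissues in 1 fit, and differences of effects in a fit of 30 libraries. The step was tested on simulated data. The SE beside an edgeR log2 difference was derived from the test, as its absolute value divided by the square root of the F statistic. DESeq2 1.42.0, limma-voom (limma 3.58.1), other scalings, no low count filter and each library left out were alternatives. CPM used total counts, and lengths were GENCODE M21 exon unions. Fold bounds used 3 counts over the group. The rule for named members took up to 8 lower and 4 higher fitted members by smallest p in brain, the 8 highest per kb in brain controls, up to 8 per tissue in bone and lung by highest single library (at least 5 CPM), members at 0 throughout a tissue, and from each pathway list the gene with most counts and that with the smallest p. Other members were described by class, and those given with values beyond the rule were chosen after their values were seen. No 2 libraries agreed within sampling noise. Marker and pathway lists (20 and 9) were summed as CPM. All 30 columns were used. Values of 4 members and of 1 pathway gene are not reported here by name, although they stay in the fits, counts and sums.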

Additional observations from a re-analysis of the deposited data

Results flagged for a closer look

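In exposed lung, several subunits had a library far from the other 6, and 2 of them are given with the size of the gap. Gria1 read 54.63 CPM in exposed replicate 3, next to Brx42, against 22.63 CPM in the next library, and this gap was 0.599 of the whole range. Grin2d read 13.52 CPM in exposed replicate 1, next to Brx07, against 4.833 CPM in the next, a gap of 0.73 of the range. Both gaps exceed the critical value of Dixon's test for 7 samples, which chance passes in about 1 of 20 groups, and 9 members were tested in this way. Gabra3 also read 7.55 CPM in exposed replicate 1 against 1.07 CPM in the next library, and Gabra4 read 4.96 CPM there against 1.93 CPM. Beside these values, the lung epithelium list summed to 3864 CPM in replicate 3 and 129 CPM in replicate 1, against 1816 and 2290 CPM in controls. The part of lung epithelium in these values was not tested.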

How the results depend on the processing

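Of members tested in brain, the count called lower was 1 without the low count filter, 6 with limma-voom and 2 with DESeq2. The same settings called 17 of 27218, 116 of 16734 and 94 of 16734 genes lower. The members' count at an unadjusted p under 0.05 in the lower direction was 18 with limma-voom, against 1658 of 16734 genes. It was 1 in the fit of 30 libraries, against 671 of 21233 genes. With pan-neuron scaling it was 0, against 0 of 16734 genes. It ran from 6 to 14 with 1 exposed library left out. Pan-neuron scaling moved the median of all genes to 1.42 and that of the members to 0.34, and with this common shift the sign turned for Grik2 (0.13), Gria4 (0.38), Gria2 (0.49), Gabrg3 (0.0911) and Gria1 (0.30). Grin2c turned without the filter (-0.0083), with limma-voom (-0.18) and in the fit of 30 libraries (-0.0194), and ran from -0.23 to 0.20 with 1 library left out, as Grin2d did from -0.35 to 0.60. With limma-voom 1 member was called in bone and 4 for the difference between brain and bone. With 1 library left out, the median ran from -1.05 to -0.55 in brain, from 0.24 to 0.60 in bone and from 0.0011 to 0.64 in lung. With limma-voom the median of the members was -0.011 in bone and -0.031 in lung, against 0.47 and 0.27 in edgeR. The cause of these changes was not tested. Replicate numbers did not pair the control samples (correlations of -0.1, -0.05 and 0.0 over 12687 genes), and with the replicate block 31 members were higher in brain than in bone and 31 than in lung, as without it. Low counts limit the bone and lung values.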
